A study of Homo sapiens with 24 samples.

Results

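The replication-dependent histone genes were taken as the protein-coding genes whose symbols are H1-1 to H1-6, or H2AC, H2BC, H3C or H4C followed by a number. Of 60605 genes in the count table, 67 met this rule: 6 H1, 15 H2A, 18 H2B, 13 H3 and 15 H4 genes. H2AC18 and H2AC19 also have symbols of this form and were not analysed here. The names and places of genes came from GENCODE release 44 on hg38. By position the 67 genes fell into 4 groups: 55 on chromosome 6 between bases 25723397 and 27893891, 9 on chromosome 1 between 149782689 and 149887965, 2 on chromosome 1 between 228434777 and 228463104, and H4C16 alone on chromosome 12.

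These genes supply the histones that package newly copied DNA. H2A, H2B, H3 and H4 form the core of the nucleosome, and H1 is the linker histone that binds the DNA entering and leaving it. Their transcription depends on the coactivator NPAT at nuclear histone locus bodies and is highest in S phase, when DNA is replicated. Their transcripts have no poly(A) tail: the pre-mRNA ends just after a short stem-loop that is bound by SLBP and cut with the help of the U7 small nuclear RNA.

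PRO-seq (precision run-on sequencing) counts reads from RNA still being made by RNA polymerase, so it measures transcription of these genes whether or not the transcript is polyadenylated. The cells were Clones 28, 35 and 39 of T47D, a luminal breast cancer line, each with a degron tag in the endogenous *TRPS1* gene. Each clone received 0.1% v/v DMSO or 100 nM dTAG-13 for 90 minutes, in 4 replicates, which gave 24 libraries in 6 groups. dTAG-13 is a small molecule that directs the tagged TRPS1 protein, a repressive GATA-type transcription factor, to degradation. All libraries, DMSO included, come from cells in which some *TRPS1* copies are knocked out and only the tagged protein is made. Every clone is 1 line, so that a clone and its particular integration cannot be told apart. The medium held serum and insulin, and no synchronization of the cells is stated. The labels say that the 4 replicates were collected at different times within 1 day and that the DMSO and dTAG-13 cells of a replicate were collected together. They do not say that a replicate number is the same time in all 3 clones, and the numbers are used below as names without an order.

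Library totals ranged from 3226718 to 9575803 reads, and the 67 genes took 0.277% to 0.595% of them. The luminal markers *ESR1*, *GATA3* and *KRT19* had median levels of 1600, 802 and 318 CPM (counts scaled to a common library size), while the basal marker *KRT5* had a median of 0 and *KRT14* of 0.141. The *TRPS1* gene itself, which dTAG-13 leaves in place, had 5180 to 9300 CPM, and its dTAG-13 difference of 0.19 on the log2 scale (SE 0.083) did not pass the test (edgeR adjusted p = 0.733). With the 12 pairs of DMSO and dTAG-13 libraries as a block the difference was 0.20 (SE 0.026, edgeR adjusted p = 6.65e-04). In these bulk libraries, fewer cells in S phase and less transcription per cell cannot be told apart.

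The stem-loop is shown first because it is what the members share beyond their names. A run of 16 bases made of a 6-base stem, a 4-base loop and the returning stem was found within the gene or 100 bases of it in 64 of the 67 members (95.5%), and not in H3C6, H4C13 or H2BC10. It lay within 100 bases of the annotated gene end in 48 members, and in only 1 of 19862 other protein-coding genes, H3-4. The sites of the highest H1, H2A and H4 members and of H4C1 are given with 5 bases on each side, the stem-loop in capitals, as DNA from hg38 in the direction of the gene. H1-2 lies on the minus strand at chr6:26055744-26055759, H2AC20 on the plus strand at chr1:149887391-149887406, H4C14 on the plus strand at chr1:149833032-149833047 and H4C1 on the plus strand at chr6:26022030-26022045.
H1-2: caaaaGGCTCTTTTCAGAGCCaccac
H2AC20: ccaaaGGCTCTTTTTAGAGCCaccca
H4C14: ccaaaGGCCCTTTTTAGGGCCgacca
H4C1: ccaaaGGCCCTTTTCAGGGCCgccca
All 14 H4 genes with a site had the stem GGCCCT, which no gene of another class had, and 49 of the 50 other genes with a site had GGCTCT. The 1 exception was H2AC15 with GGTTCT. Stems outside the searched form could not be found, so this likeness within a class holds for sites of that form.

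Promoters differed by class. RefSeq promoters were matched for 62 of the 67 members, in 66 windows, and 250 bases upstream of the start were searched on both strands. TATAAA was found in 65.2% of these windows and in 10.7% of 35116 promoters of all genes. CCAAT, the letters that NF-Y binds, was found in every H1, H2A, H2B and H3 window but in only 3 of 13 H4 windows (32.0% of all promoters). ATTTGCAT, the octamer bound by OCT1, was found in 11 of 14 H2A and 15 of 20 H2B windows (1.63% of all promoters). Some H2A and H2B windows overlap, because the genes point away from each other. H2AC20 begins at base 149886918 and H2BC21 at 149886682 of chromosome 1, H2AC8 at 26216921 and H2BC8 at 26216688 of chromosome 6. A motif between such genes can be counted for both, so the H2A and H2B counts are not independent. The H2AC20 bases printed below hold no octamer. AAACACA was found in all 6 H1 windows and in no window of another class (4.82% of all promoters). Such matches describe letters and not binding. The 120 bases before the start of 5 members whose values are followed below are printed, 1 from each class, with these motifs in capitals. They lie at chr6:26056471-26056590 (H1-2, minus strand), chr1:149886798-149886917 (H2AC20, plus strand), chr6:26216689-26216808 (H2BC8, minus strand), chr6:26045264-26045383 (H3C3, plus strand) and chr6:26189113-26189232 (H4C4, minus strand).
H1-2: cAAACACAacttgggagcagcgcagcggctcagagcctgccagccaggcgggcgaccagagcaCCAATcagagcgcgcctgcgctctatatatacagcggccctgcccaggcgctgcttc
H2AC20: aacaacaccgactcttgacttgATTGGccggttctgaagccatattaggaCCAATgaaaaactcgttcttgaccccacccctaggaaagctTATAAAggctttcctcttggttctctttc
H2BC8: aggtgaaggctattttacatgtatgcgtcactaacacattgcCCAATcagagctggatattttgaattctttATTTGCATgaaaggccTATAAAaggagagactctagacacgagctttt
H3C3: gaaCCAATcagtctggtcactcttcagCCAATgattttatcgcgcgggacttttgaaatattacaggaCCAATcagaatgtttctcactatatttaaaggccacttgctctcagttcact
H4C4: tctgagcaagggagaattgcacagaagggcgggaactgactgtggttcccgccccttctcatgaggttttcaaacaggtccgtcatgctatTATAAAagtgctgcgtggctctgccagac
ATTGG in the H2AC20 promoter is CCAAT read on the other strand. The H2BC8 window holds a CCAAT, the octamer and a TATAAA in that order, and the H4C4 window holds only the TATAAA.

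Of the 67 members, 57 passed the filter on low counts (22326 genes in all), namely 4 H1, 13 H2A, 16 H2B, 12 H3 and 12 H4 genes. The other 10 had few reads over all 24 libraries together. These were H2BC1 with 9 reads, H2AC1 with 12 and H1-1 with 24. H3C8 had 29, H4C7 35 and H4C13 45. H4C9 had 92, H1-6 had 96, H2AC11 had 112 and H2BC11 had 159. A gene passed with the equivalent of 10 reads, in a library of median size, in at least 4 libraries.

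Most members had many reads for their length. The counts do not show where in a gene the reads lay, so a level per kilobase is not a rate of transcription. Per kilobase of exon, the median of the 57 tested members was 92.5 CPM in DMSO, against 6.72 over 14905 protein-coding genes, and all 57 were above the latter. A short gene passes the count filter only at a higher level per kilobase than a long one, so that count depends partly on the filter. Per kilobase of the whole gene the medians were 62.9 and 1.05. H1-2 led the linker histones with 181 CPM per kilobase of exon. The highest mean CPM of a core histone class was that of H2AC20 for H2A, with 346 CPM per kilobase, H2BC5 for H2B, with 268, H3C12 for H3, with 108, and H4C14 for H4, with 145. H2BC5, H3C12 and H4C14 have long annotated forms, and per kilobase of the whole gene they were at 17.4, 33.3 and 38.3 CPM, so that their order against other members depends on which length is used.

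**Figure D1:**
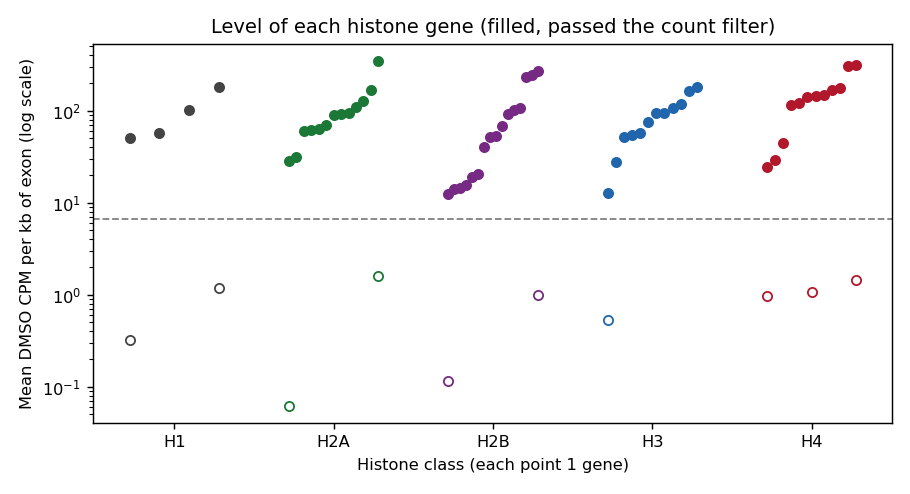
Each point is 1 histone gene, with its mean CPM over the 12 DMSO libraries per kilobase of exon on a log axis, grouped by class. Filled points are the 57 genes that passed the count filter, open points the 10 that did not, and the dashed line is the median of protein-coding genes (6.72). All filled points lie above the line and all open points below it.

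Some members cannot be told apart by their reads. H4C14 and H4C15 on chromosome 1 share nearly their whole sequence, as do H3C14 and H3C15, and 11 of the 67 members share at least 50% of their 40-base words with another member. Others overlap in the annotation: H2BC4 is annotated over 37610 bases that include H4C3 on the other strand and H1-6, and H2AC17 lies within H3C12. The strand setting of the counting is not given in the sources used here, so reads of overlapping members may be counted in both. The counts of these genes are uncertain to that extent, and 23 members have neither an overlapping gene nor 10% or more of shared words.

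The first question was whether the level of these genes followed the replicate number. The libraries numbered 3 and 4 had a higher summed histone level than those numbered 1 and 2 in every clone. The summed level of the 67 genes in DMSO, in the order Clone 28, 35 and 39, was 3539, 3345 and 2872 CPM at number 1 and 4084, 3781 and 3369 at number 2. It was 5447, 4848 and 4125 CPM at number 3 and 5967, 5201 and 4300 at number 4. In each clone the libraries numbered 3 and 4 were thus above those numbered 1 and 2. With dTAG-13 the sums were 3948, 3534 and 3224 CPM at number 1 and 4591, 4264 and 3761 at number 2. They were 5032, 4304 and 3922 at number 3 and 5278, 4542 and 4055 at number 4. Ranked by level, the numbers came in the same order in all 6 groups, and the range was wider in DMSO. Number 4 over number 1 was 1.69, 1.55 and 1.50 in DMSO and 1.34, 1.29 and 1.26 with dTAG-13 for Clones 28, 35 and 39.

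**Figure D2:**
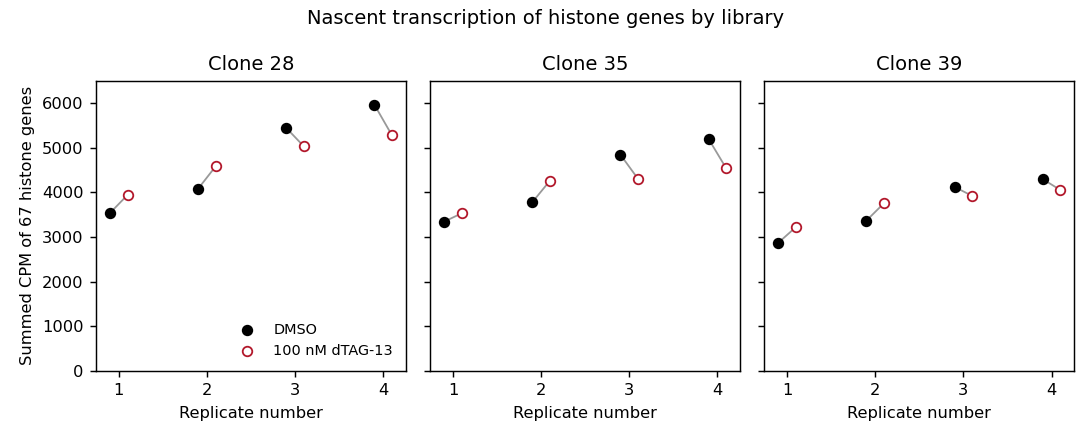
The summed CPM of the 67 histone genes (vertical axis, from 0) is shown for each replicate number (horizontal axis) in Clones 28, 35 and 39. Filled points are DMSO, open points 100 nM dTAG-13, and a line joins the 2 libraries of a pair. At numbers 1 and 2 the dTAG-13 point is higher in all 3 clones, and at numbers 3 and 4 it is lower in all 3.

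With the replicate number as a factor beside the 6 groups, 53 of the 57 members (93.0%) differed between numbers at an adjusted p under 0.1 by edgeR's quasi-likelihood F test, where 37.2% of all genes tested did. These were all 4 H1, 13 H2A and 12 H4 members, 15 of 16 H2B members and 9 of 12 H3 members. The 4 others were H3C7, H3C13, H2BC10 and H3C6 (edgeR adjusted p = 0.179, 0.267, 0.436 and 0.860).

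Number 4 against number 1 was the widest contrast, with 53 members higher and 0 lower (16.3% of all genes were higher and 15.6% lower). The members' median difference was 0.54 on the log2 scale, from 0.068 for H3C6 to 1.20 for H2BC14, while that of all genes was -0.0046. The median was 0.71 for H1, 0.58 for H2A, 0.55 for H2B, 0.54 for H3 and 0.44 for H4. In 45 members the number 4 library was above the number 1 library in all 6 groups, and in 21 every number 4 library was above every number 1 library. The counts of 45 and 21 were made for the members only, so they cannot be read against a share of all genes.

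Number 3 against number 1 gave 46 members higher and 0 lower (15.3% and 14.6% of all genes). Number 2 against number 1 gave 20 higher and 0 lower (3.57% and 3.52%), and number 3 against number 2 gave 31 higher and 0 lower (9.46% and 9.94%). Number 4 against number 2 gave 44 higher and 1 lower (12% and 12.2%). Between numbers 4 and 3 no member passed in either direction by edgeR (0.188% of all genes were higher and 0.0941% lower), and DESeq2 likewise called 0. An unadjusted edgeR p under 0.05 was found in 14 members and in 1731 of all 22326 genes. The members' median difference was 0.21 between numbers 2 and 1, 0.23 between 3 and 2 and 0.11 between 4 and 3. With the numbers ranked by their summed level, the widest gap from 1 rank to the next in DMSO lay between 2 and 3. The means there were 3745 ± 359 and 4807 ± 662 CPM (SD, n = 3 clones). With dTAG-13 the widest gap lay between 1 and 2, with 3569 ± 363 and 4206 ± 418 CPM. This ranking is by level and does not say in which order the replicates were collected.

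Single members differed in which numbers lay apart. H3C14 on chromosome 1 (149840687 to 149841208), which encodes a canonical H3 and has a near-identical copy in H3C15, had the smallest p-value of all members. Its lowest, median and highest level over the 6 libraries was 60.8, 66.4 and 78.1 CPM at number 1, 64.8, 72.3 and 85.2 at number 2, 84.6, 90.8 and 118 at number 3, and 88.5, 96.6 and 123 at number 4. All number 4 libraries were above all those of numbers 1 and 2, and the difference between numbers 4 and 1 was 0.59 on the log2 scale (SE 0.047, edgeR adjusted p = 4.54e-16).

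H3C3, an H3 gene on chromosome 6 (26045384 to 26045869), had 22.1, 31.5 and 40.1 CPM at number 1 and 32.7, 35.3 and 43.3 at number 2. It had 51.8, 59.2 and 65.4 CPM at number 3 and 51.3, 61.4 and 68.3 at number 4. The libraries of numbers 3 and 4 did not overlap with those of numbers 1 and 2. Between numbers 3 and 2, H3C14 and H3C3 differed by 0.40 (SE 0.047) and 0.68 (SE 0.072) and passed, while between 2 and 1 their differences of 0.11 and 0.21 did not (edgeR adjusted p = 0.210 and 0.139). In H3C3 number 4 was higher than number 1 by 0.94 (SE 0.074, edgeR adjusted p = 1.49e-13).

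H2BC8, an H2B gene on chromosome 6 (26216200 to 26216688), had 69.7, 91.1 and 105 CPM at number 1 and 112, 133 and 161 at number 4, without overlap (log2 difference 0.62, SE 0.048, edgeR adjusted p = 1.71e-15). H2AC6, an H2A gene, and H2BC4, an H2B gene that overlaps H4C3, were also among the 6 smallest p-values, with differences of 0.42 (SE 0.039) and 0.55 (SE 0.047) between numbers 4 and 1. H2AC6 was higher at number 2 than at number 1 by 0.36 (SE 0.040, edgeR adjusted p = 1.68e-09), and its difference of 0.073 between 3 and 2 did not pass (SE 0.039, edgeR adjusted p = 0.214). H3C15, the near-identical copy of H3C14, differed by 0.54 (SE 0.046) between numbers 4 and 1.

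The member with the highest level in each class was also higher at number 4 than at number 1. H1-2, a linker histone gene on chromosome 6 (26055740 to 26056470), had a lowest, median and highest level of 74.4, 93.9 and 123 CPM at number 1 and 126, 157 and 246 at number 4. The core histone gene H2AC20 on chromosome 1 (149886918 to 149887411) had 99.97, 136 and 159.8 CPM at number 1 and 178, 218 and 233 at number 4. In H1-2 and H2AC20 the libraries of the 2 numbers did not overlap. H2BC5 (chromosome 6, 26158122 to 26171349) had 135.5, 185 and 204 CPM at number 1 and 215, 283 and 359 at number 4. H3C12 (chromosome 6, 27890315 to 27893106) had 59.9, 75.7 and 89.6 CPM at number 1 and 82.3, 108 and 133 at number 4. H4C14 (chromosome 1, 149832657 to 149839767) had 199, 212 and 241 CPM at number 1 and 242, 292 and 348 at number 4. H3C12 was thus the only one of these 5 whose libraries overlapped between the 2 numbers. All 5 were higher at number 4 than at number 1 by edgeR's test, by 0.79 (SE 0.097) for H1-2, 0.65 (SE 0.054) for H2AC20, 0.67 (SE 0.060) for H2BC5, 0.54 (SE 0.063) for H3C12 and 0.45 (SE 0.045) for H4C14. Between numbers 2 and 1, H2BC5, H3C12 and H4C14 passed, with 0.30 (SE 0.061), 0.33 (SE 0.065) and 0.28 (SE 0.045). Between numbers 3 and 2 all but H3C12 passed, with 0.27 (SE 0.096) for H1-2, 0.42 (SE 0.054) for H2AC20, 0.22 (SE 0.060) for H2BC5 and 0.18 (SE 0.045) for H4C14.

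H2BC6, an H2B gene whose annotated span of 12597 bases overlaps other genes, went against the rest. Its lowest, median and highest level was 24.6, 29.5 and 32.9 CPM at number 1 and 34.0, 36.1 and 40.2 at number 2. It was 30.8, 35.4 and 39.9 CPM at number 3 and 29.5, 30.2 and 32.9 at number 4. It was the 1 member lower at number 4 than at number 2 (log2 difference -0.25), and it was singled out after its values were seen.

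**Figure D3:**
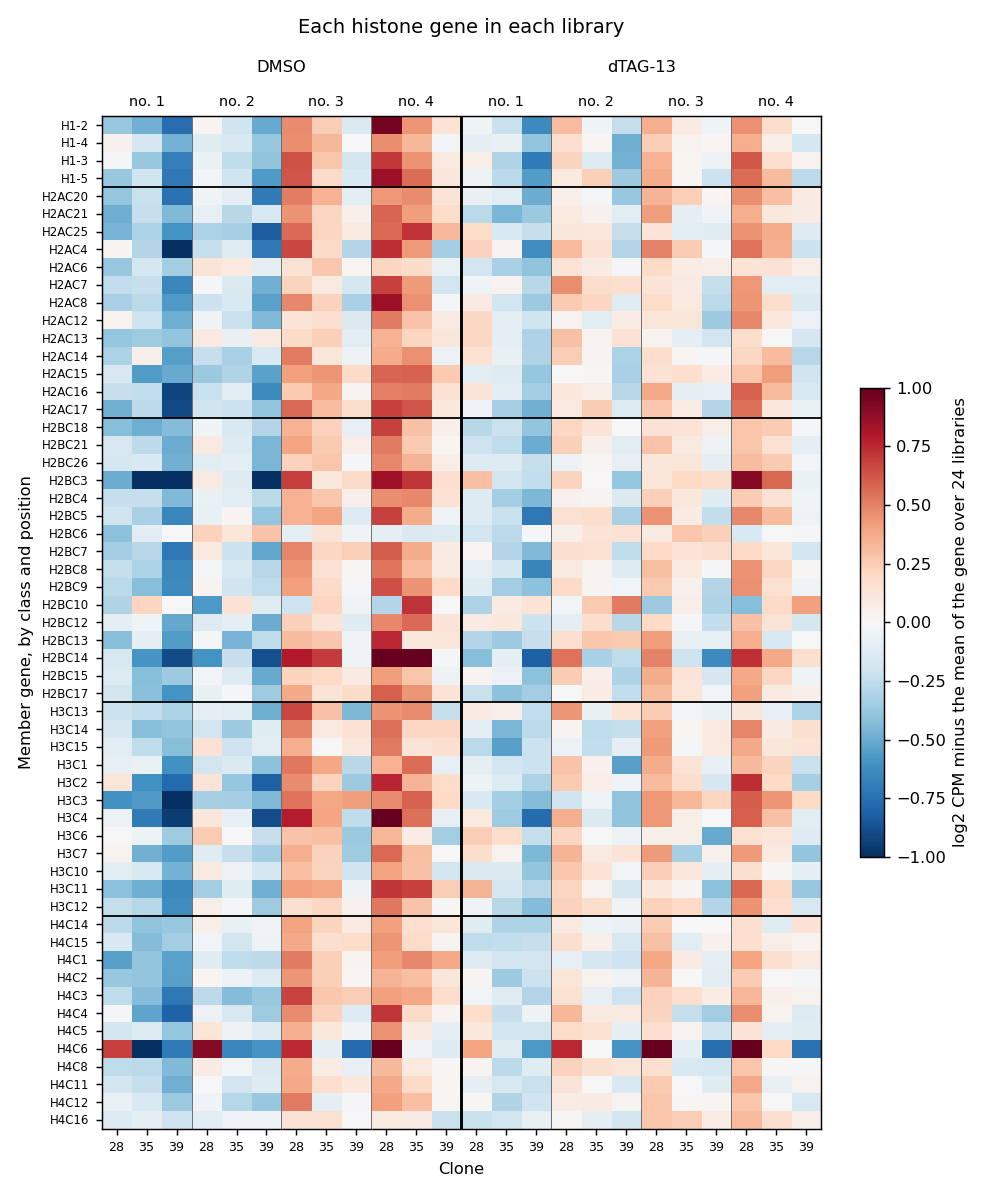
Rows are the 57 tested histone genes by class and position, columns the 24 libraries by treatment, replicate number and clone, and the colour is the log2 CPM minus the mean of that gene over all libraries. Reds (above the mean) lie mainly in the DMSO libraries numbered 3 and 4, the deepest blues mainly in those numbered 1, and the dTAG-13 columns are paler. H4C6 is high in Clone 28 at every number.

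Other gene groups were read from the same fit, where 37.2% of all genes differed between numbers and, for number 4 against 1, 16.3% were higher and 15.6% lower. Of 43 S-phase genes, which make nucleotides and the replication machinery, 39 differed between numbers, and number 4 was higher than number 1 in 39, with a median of 0.30. RRM2, a subunit of ribonucleotide reductase, was higher by 0.64 (SE 0.042) and CDC45, part of the replicative helicase, by 0.50 (SE 0.053). Of 20 factors that transcribe and process histone pre-mRNA, 10 differed between numbers, and number 4 was higher than number 1 in 9 and lower in 0, with a median of 0.080. SLBP, which binds the stem-loop, was higher by 0.26 (SE 0.052), and ZNF473, a zinc finger protein of the U7 particle, by 0.39 (SE 0.061). Of 18 histone chaperones, 11 differed between numbers, and number 4 was higher in 8 and lower in 1, ATRX. ASF1B, an H3-H4 chaperone of dividing cells, was higher by 0.74 (SE 0.074), and CHAF1A, the large subunit of chromatin assembly factor 1, by 0.40 (SE 0.062).

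Replication-independent histones, listed here as variants not confined to S phase, were measured in 11 of 14 listed genes. Of these 11 genes, 7 differed between numbers, and the median for number 4 against 1 was 0.11. The smallest p-values were those of H2AX, the variant phosphorylated at DNA breaks, which was higher by 0.45 (SE 0.062), and H1-10, a linker variant, higher by 0.52 (SE 0.073). Of 15 tested protein-coding genes that lie between the histone genes on chromosome 6, 5 differed between numbers (33.3%, near the 37.2% of all genes), with a median of 0.016. The smallest p-value there was that of ENSG00000282988, which itself overlaps H3C4 and H2AC7. SLBP, CCNE1, CHAF1A and CHAF1B stand in 2 of these lists. The lists are described here by counts, and no list was tested against another. The part of cell-cycle position in the differences between numbers was not tested.

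**Figure D4:**
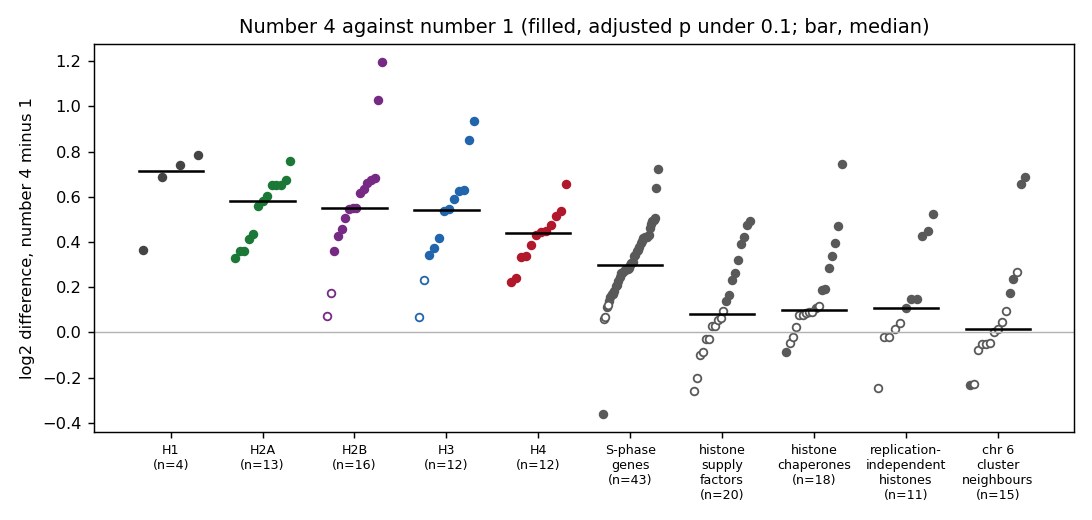
Each point is 1 gene with its log2 difference between numbers 4 and 1 from the fit over all genes, by histone class and for 5 other groups of genes. Filled points passed an adjusted p of 0.1, and bars are medians. The 5 histone classes have medians of 0.44 to 0.71, S-phase genes 0.30, and the other groups 0.016 to 0.11.

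The second question was whether dTAG-13 changed these genes. Over the 3 clones together no member passed the test by edgeR, higher or lower (0.358% of all genes were higher and 0.193% lower). None had an unadjusted p under 0.05, and DESeq2 also called 0. The median log2 difference was -0.0077, from -0.22 to 0.15, and 25 of 57 members were positive. The median was -0.018 in Clone 28, -0.046 in Clone 35 and 0.033 in Clone 39. The differences between clones in the dTAG-13 effect passed for no member (0% of all genes by edgeR), with 0 members at an unadjusted p under 0.05 and 0 called by DESeq2. That fit held the 6 groups and no term for the number or the pair, so the spread between numbers stayed in its error. Only 407 of all 22326 genes had an unadjusted edgeR p under 0.05, which is fewer than that level gives by chance. The test could therefore miss differences between clones.

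The 3 smallest p-values for dTAG-13 were those of H2AC4, H4C16 and H2BC14. H2AC4, an H2A gene, had a lowest, median and highest level of 6.58, 14.8 and 28.3 CPM over the 12 DMSO libraries and 10.7, 19.2 and 24.7 over the 12 dTAG-13 libraries. H4C16, the H4 gene on chromosome 12, had 62.7, 71.1 and 81.5 CPM in DMSO and 62.8, 75.1 and 91.5 with dTAG-13. H2BC14, an H2B gene, had 2.79, 5.21 and 15.1 CPM in DMSO and 2.99, 5.03 and 9.65 with dTAG-13. In all 3 the libraries of the treatments overlapped, and the differences were 0.15 (SE 0.12), 0.074 (SE 0.059) and -0.22 (SE 0.24), with edgeR adjusted p-values of 0.973, 0.982 and 1.00.

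The effect of dTAG-13 differed between replicate numbers. A test of that difference itself, with clone, number and treatment in the fit, passed for 31 of 57 members (54.4%), where 1.73% of all genes passed by edgeR. These were 2 of 4 H1, 8 of 13 H2A, 7 of 16 H2B, 6 of 12 H3 and 8 of 12 H4 members. DESeq2 called 10 members in the same comparison, and its share of all genes is not given here.

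In the pairs numbered 1 and 2 the histone genes were higher with dTAG-13, and in those numbered 3 and 4 they were lower. The ratio of the summed CPM, dTAG-13 over DMSO, was 1.12, 1.06 and 1.12 at number 1 for Clones 28, 35 and 39, and 1.12, 1.13 and 1.12 at number 2. It was 0.924, 0.888 and 0.951 at number 3 and 0.885, 0.873 and 0.943 at number 4. The 3 clones were thus on the same side of 1 at every number. At number 1 the count of members higher with dTAG-13 was 45, 41 and 50 of 57 in the 3 clones, and at number 2 it was 53, 51 and 47. At number 3 it was 11, 5 and 19, and at number 4 it was 5, 4 and 14. These counts compare single libraries and were made for the members only, so no share of all genes stands beside them. Some members may also share reads, as described above.

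From the fit, the members' median log2 difference was 0.16 at number 1, 0.22 at number 2, -0.13 at number 3 and -0.17 at number 4, where that of all genes was between -0.0033 and 0.0031. Fewer single members passed within a number. At number 1, 9 were higher and 0 lower (0.372% and 0.318% of all genes), and at number 2, 11 were higher and 0 lower (0.511% and 0.291%). At number 3, 0 were higher and 6 lower (1.36% and 0.681%), and at number 4, 0 were higher and 10 lower (0.475% and 0.318%). Within a number there are 3 pairs, and these counts rest on single libraries. DESeq2 without independent filtering called 0 of 57 members within each number, with 14, 22, 10 and 18 members at an unadjusted p under 0.05, where edgeR had 27, 37, 24 and 33. Over all 22326 genes edgeR had 2158, 2151, 2567 and 1877 at that level.

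Leaving out a library at number 1 left 2 members without the DMSO library of Clone 28, 1 without its dTAG-13 library, 5 without the dTAG-13 library of Clone 35, 1 without the DMSO library of Clone 39 and 2 without its dTAG-13 library. At number 2 it left 3 without the DMSO library of Clone 28, 4 and 3 without the DMSO and the dTAG-13 library of Clone 35, and 3 without the dTAG-13 library of Clone 39. At number 3 it left 1 and 3 without the DMSO and the dTAG-13 library of Clone 28, 3 and 0 without those of Clone 35, and 3 and 3 without those of Clone 39, and also 3 without the number 2 DMSO library of Clone 35. At number 4 it left 3 without the DMSO library of Clone 28, 1 and 4 without the DMSO and the dTAG-13 library of Clone 35, and 3 without the dTAG-13 library of Clone 39. The count for the test between numbers stayed between 26 and 35 over all 24 omissions. Without Clone 35 that test called 14 members and without Clone 28 it called 18. The share of all genes called is not given for these fits with libraries or clones left out. A lower count of members therefore cannot be told from a lower count over all genes.

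H2AC25, an H2A gene on chromosome 1 (228434777 to 228457873) whose annotated form overlaps the pseudogene RPL23AP15, had the smallest p-value for this test (edgeR adjusted p = 5.18e-07). In the order Clone 28, 35 and 39, it had 37.0, 41.2 and 33.7 CPM in DMSO and 58.5, 46.2 and 43.8 with dTAG-13 at number 1. It had 41.3, 40.8 and 28.8 in DMSO and 55.7, 55.2 and 43.5 with dTAG-13 at number 2. The treatments did not overlap at these 2 numbers, with dTAG-13 higher. It had 76.4, 59.6 and 54.8 in DMSO and 56.3, 47.5 and 47.2 with dTAG-13 at number 3. It had 76.2, 84.9 and 64.3 in DMSO and 70.2, 66.4 and 47.1 with dTAG-13 at number 4. Here dTAG-13 was lower within each pair, although the 3 libraries of a treatment overlapped. The log2 differences were 0.39 (SE 0.096), 0.47 (SE 0.093), -0.35 (SE 0.084) and -0.30 (SE 0.077) at numbers 1 to 4, and all 4 passed.

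H4C4, an H4 gene on chromosome 6 (26188710 to 26189112), came second (edgeR adjusted p = 1.87e-06). It had 66.6, 46.5 and 38.1 CPM in DMSO and 76.4, 57.2 and 64.8 with dTAG-13 at number 1. It had 64.5, 59.9 and 52.5 in DMSO and 84.5, 71.4 and 71.3 with dTAG-13 at number 2. In both, dTAG-13 was higher in every pair. It had 93.4, 78.9 and 61.3 in DMSO and 78.4, 56.7 and 52.8 with dTAG-13 at number 3. It had 111, 76.6 and 68.5 in DMSO and 92.8, 68.9 and 60.9 with dTAG-13 at number 4. In these pairs dTAG-13 was lower. The log2 differences were 0.41 (SE 0.082), 0.36 (SE 0.077), -0.31 (SE 0.074) and -0.19 (SE 0.070), of which the last did not pass (edgeR adjusted p = 0.328).

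The linker histone gene H1-2 was next (edgeR adjusted p = 2.82e-06). It had 97.2, 90.6 and 74.4 CPM in DMSO and 123, 108 and 81.2 with dTAG-13 at number 1. It had 128, 109.8 and 89.1 in DMSO and 156, 123 and 107 with dTAG-13 at number 2. Both numbers had dTAG-13 higher in every pair. It had 176, 150.1 and 114 in DMSO and 162, 134 and 123 with dTAG-13 at number 3. It had 246, 172 and 139 in DMSO and 173, 143 and 126 with dTAG-13 at number 4. At number 3 Clone 39 was the exception, with dTAG-13 higher, and the difference there did not pass (-0.068, SE 0.059, edgeR adjusted p = 0.722). At numbers 1, 2 and 4 the differences were 0.25 (SE 0.064), 0.24 (SE 0.061) and -0.31 (SE 0.057). H3C11 (edgeR adjusted p = 4.83e-05), H4C3 and H2BC9 (9.19e-05 each), genes of H3, H4 and H2B, followed.

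Other members led within single numbers. At number 1, H4C2 (an H4 gene) was higher with dTAG-13 by 0.25, H3C3 by 0.41 and H2AC20 by 0.23 (SE 0.062, 0.10 and 0.057). At number 2, the H2A genes H2AC7 and H2AC8 were higher by 0.49 and 0.42 (SE 0.090 and 0.092) and the H2B genes H2BC21 and H2BC18 by 0.22 and 0.28 (SE 0.053 and 0.069). At number 3, H4C14 fell by 0.16, H2AC17 by 0.31, H4C3 by 0.25 and H3C11 by 0.35 (SE 0.047, 0.086, 0.076 and 0.11). At number 4, the H2B genes H2BC4, H2BC9, H2BC12 and H2BC7 fell by 0.25, 0.24, 0.32 and 0.31 (SE 0.050, 0.056, 0.078 and 0.081) and H3C11 by 0.41 (SE 0.10). Every class of core histone was thus represented in each direction.

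**Figure D5:**
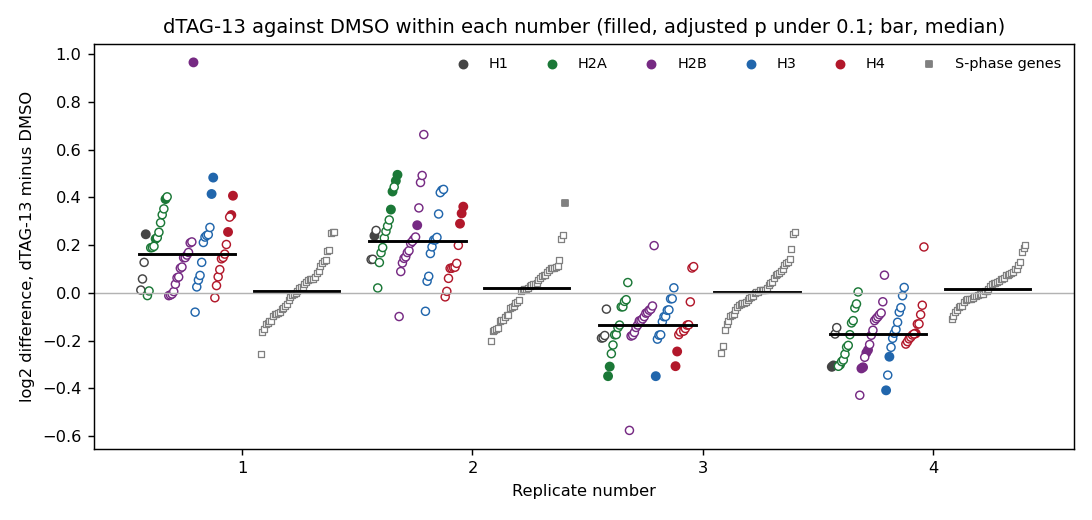
The log2 difference between dTAG-13 and DMSO is shown at each replicate number for the 57 histone genes (circles, coloured by class) and 43 S-phase genes (grey squares). Filled symbols passed an adjusted p of 0.1 and bars are medians. The medians of the histone genes are 0.16, 0.22, -0.13 and -0.17, and those of the S-phase genes lie between 0.0050 and 0.022.

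In the same test between numbers, which 1.73% of all genes passed, 1 of 43 S-phase genes passed, PCNA, the sliding clamp of the replicative polymerases (edgeR adjusted p = 0.0241), and 7 had an unadjusted p under 0.05. Within the numbers the medians of the S-phase genes were 0.0066, 0.022, 0.0050 and 0.015. Of the factors that supply histone mRNA 0 of 20 passed by edgeR, with 4 at an unadjusted p under 0.05, and of the histone chaperones 0 of 18 passed, with 0 at that level. It was reached by 2484 of all 22326 genes. Of the replication-independent histones 3 of 11 passed: H1-10, H2AX and H2AZ1, the variant found near promoters (edgeR adjusted p = 0.00228, 0.00341 and 0.0126). Of these, H2AX was higher with dTAG-13 at number 2 (log2 difference 0.31, edgeR adjusted p = 0.00383) and H1-10 lower at number 3 (-0.25, edgeR adjusted p = 0.0332). Among the neighbours on chromosome 6, ENSG00000282988 was the 1 of 15 that passed (edgeR adjusted p = 4.65e-04), and it overlaps 2 members.

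The last question was how the clones differed in DMSO. Clone 39 had the lowest histone transcription: its summed level over the 4 DMSO libraries was below that of Clones 28 and 35 at every number. Against Clone 28, 21 members were lower in Clone 39 and 0 higher (14.3% of all genes were lower and 12.4% higher), with a median of -0.40 on the log2 scale. The replicate number was not a term of this fit. With the number as a block shared by the clones, 50 members were called, where 35.2% of all genes were. The 21 members called without the block were all 4 H1 members, 4 of 13 H2A, 1 of 16 H2B, 7 of 12 H3 and 5 of 12 H4 members. In 49 of 57 members Clone 39 was lower than Clone 28 at all 4 numbers, and in 6 every Clone 39 library was below every Clone 28 library. Neither count was made over all genes, so no background share stands beside them. Because the numbers differed as much as described above, the count of 21 moved with single DMSO libraries. It was 35, 12 and 8 without the number 1, 3 and 4 libraries of Clone 28, and 8 and 11 without the number 1 and 2 libraries of Clone 39. Shares of all genes are not given for these repeats or for those against Clone 35 below.

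Against Clone 35, 7 members were lower in Clone 39 and 0 higher (12.9% and 9.64% of all genes), with a median of -0.26. The 7 are 12.3% of the members, near the share of all genes that were lower. Here the count was 12, 4 and 2 without the number 1, 3 and 4 DMSO libraries of Clone 35 and 3 without the number 1 DMSO library of Clone 39. Between Clones 35 and 28, 1 member was higher in Clone 35, H2BC10, and 1 was lower, H4C6 (2.24% and 3.01% of all genes). Each is 1.75% of the members, which is below the share of all genes. With the number as a shared block, 31 members were called between Clones 39 and 35 (30.5% of all genes). Between Clones 35 and 28 the block gave 12 members (11.9% of all genes).

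H4C6, a weakly transcribed H4 gene on chromosome 6 (26240393 to 26240793), had the largest clone difference among the members called. At numbers 1 to 4 in DMSO it had 14.4, 17.0, 15.1 and 20.4 CPM in Clone 28, 4.05, 5.41, 8.20 and 8.57 in Clone 35, and 5.19, 5.66, 4.90 and 7.99 in Clone 39. All Clone 28 libraries were above all others. Clone 39 was lower than Clone 28 by 1.48 on the log2 scale (SE 0.20, edgeR adjusted p = 4.10e-07), and Clone 35 was lower than Clone 28 by 1.31 (SE 0.18, edgeR adjusted p = 1.51e-05).

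H3C6 is an H3 gene of chromosome 6 (26224199 to 26227473) in which no stem-loop of the searched form was found. It had 33.8, 40.6, 41.5 and 42.8 CPM in Clone 28, 32.7, 34.0, 41.8 and 35.8 in Clone 35, and 26.3, 28.8, 26.2 and 26.6 in Clone 39. The Clone 39 libraries were below all others. The log2 difference was -0.56 against Clone 28 (SE 0.098, edgeR adjusted p = 4.15e-05) and -0.43 against Clone 35 (SE 0.097, edgeR adjusted p = 0.00133). This gene was also among the 4 that did not differ between numbers by the test.

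H2AC4, an H2A gene of chromosome 6 (26033092 to 26033618), had 17.2, 14.2, 26.9 and 28.3 CPM in Clone 28, 13.6, 15.4, 19.2 and 22.7 in Clone 35, and 6.58, 10.04, 13.6 and 13.2 in Clone 39. The Clone 39 libraries were below all those of Clone 28 and overlapped by 1 library with Clone 35. The log2 difference was -1.01 against Clone 28 (SE 0.22, edgeR adjusted p = 0.00108) and -0.74 against Clone 35 (SE 0.22, edgeR adjusted p = 0.0171). H4C5, H3C10 and H3C13 were the next 3 against Clone 28, with -0.37 (SE 0.099), -0.45 (SE 0.12) and -0.64 (SE 0.18).

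H2BC10 is an H2B gene of chromosome 6 (26272931 to 26273412) in which no stem-loop of the searched form was found either. It had 7.21, 5.87, 7.75 and 7.27 CPM in Clone 28, 10.5, 9.98, 10.5 and 15.2 in Clone 35, and 8.98, 8.24, 8.72 and 8.99 in Clone 39. The 3 clones did not overlap. The log2 difference between Clones 35 and 28 was 0.73 (SE 0.17, edgeR adjusted p = 0.00732).

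Of the other groups, 13 of 43 S-phase genes were lower in Clone 39 than in Clone 28 and 0 higher, with a median of -0.18. Over all genes 14.3% were lower and 12.4% higher, which is the share to read these and the following counts against. RPA1, a subunit of the single-strand binding protein, was lower by 1.09 (SE 0.11) and MCM2, a helicase subunit, by 0.85 (SE 0.097). Of the 20 supply factors 5 were lower and 0 higher, of the 18 chaperones 5 were lower and 0 higher, and of the 11 replication-independent histones 3 were lower and 1 higher. H3-3B, which encodes the replacement histone H3.3, was lower by 0.43 (SE 0.076). Of the 15 neighbours on chromosome 6, 3 were higher in Clone 39 and 1 lower. TRIM38 and HFE, which lie among the histone genes but encode an immune regulator and an iron regulator, were higher by 0.46 (SE 0.099) and 0.31 (SE 0.090). HFE overlaps the annotated form of H2BC4. Whether the S-phase and histone genes differed between clones through the share of cycling cells was not tested.

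H1 genes took 5.94% to 8.29% of the summed histone level over the 24 libraries, H2A genes 17.8% to 20.5%, H2B genes 27.2% to 30.5%, H3 genes 14.2% to 15.8% and H4 genes 27.1% to 33.5%. Over all 24 libraries the coefficient of variation of a member had a median of 22.1%, from 11.5% for H4C16, which stands alone on chromosome 12, to 51.7% for H4C6.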

How the data were processed

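Members and lists were chosen with earlier results of these data known. The authors removed adapters (cutadapt 1.8.1), deduplicated reads by their molecular identifiers, removed ribosomal reads, aligned to hg38 (Bowtie2 2.4.4, SAMtools 1.9, per the labels) counted reads in genes with bedtools and deposited whole-number counts, not normalized. The annotation and strand setting of the counting are not given in the sources used here. Of 60605 identifiers, 60463 matched GENCODE 44.

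Genes were kept by filterByExpr (minimum count 10), scaled by TMM and fitted with edgeR 4.0.16 (R 4.3.3, robust quasi-likelihood), with Benjamini-Hochberg adjustment over 22326 genes and a threshold of 0.1. The models were clone + treatment (20 residual degrees of freedom), 6 groups (18), groups + number (15), and clone + number + treatment by clone + treatment by number (12). DMSO and dTAG-13 libraries of 1 clone and number are pairs, because the labels say they were collected together. Deviations from the group means of such pairs correlated at 0.0926 to 0.318 (12 pairs). Replicates were dishes of 1 line collected on 1 day, so p-values measure the spread between these dishes. Replicates differed beyond counting error (chi-square per degree of freedom 1.66 to 13.8). The fits were tested on simulated data.

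Genes named with values were, in each class, the member with the highest mean DMSO level, and, in each comparison, up to 6 members with the smallest p-value among those called (3 where none was) and up to 4 genes per list. Other normalizations, filters, DESeq2 1.42.0, a threshold of 0.05, replicate blocks, single clones or treatments and leaving out each library or clone were tried. Leaving out clones from the test between numbers, the members without overlap or shared words, and DESeq2 without independent filtering were chosen after seeing the data. The result of 1 S-phase gene is not reported here.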

Additional observations from a re-analysis of the deposited data

Results flagged for a closer look

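The difference of the dTAG-13 effect between replicate numbers stood out because a test of the difference itself passed. It passed for 31 members, with the smallest adjusted p-values by edgeR's quasi-likelihood test in H2AC25 (5.18e-07), H4C4 (1.87e-06), H1-2 (2.82e-06), H3C11 (4.83e-05), H4C3 (9.19e-05) and H2BC9 (9.19e-05).

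In 90 groups of 4 libraries, for the summed level and 14 members, 3 had 1 library far from the other 3, where chance gives about 1 in 20. H3C12 had 76.1 CPM in the number 1 dTAG-13 library of Clone 35, below the others. H3C6 had 28.8 CPM in the number 2 DMSO library of Clone 39, above the others. H2BC10 had 15.2 CPM in the number 4 DMSO library of Clone 35, above the others, and without that library its difference between Clones 35 and 28 was 0.55 and still passed.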

How the results depend on the processing

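Of 614 repeats of a count or level under another setting, 532 stayed within 1.5 times the value given, or within 1 SD for a level, and of 3062 repeats for single members 200 lost the call, 1 gained it and 1 reversed (H2BC14, dTAG-13 in Clone 39 alone, 0.11). With the 12 pairs as a replicate block no call count moved by over 1.5 times: 0 members for dTAG-13 and 32 for its difference between numbers. With the number as a replicate block shared by the clones, the clone differences in DMSO counted 12 members (35 against 28), 50 (39 against 28) and 31 (39 against 35), where 11.9%, 35.2% and 30.5% of all genes were called. Same-numbered libraries of different clones correlated at 0.0285 to 0.352 in their deviations, with a mean of 0.199 (48 pairs). The mean was 0.185 for the 12 pairs within a clone and -0.0659 for other numbers of other clones. That a number is shared by the clones thus rests on the data, since no label says so. As means over both treatments the clone counts were 4, 40 and 16, and the shares of all genes for these are not given here.

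In single clones, the test between numbers called 32 members in Clone 39. Number 2 against 1 called 5, 2 and 4 in Clones 28, 35 and 39, number 3 against 1 called 28 in Clone 35 and 28 in Clone 39, number 3 against 2 called 5 and 7 there, number 4 against 2 called 18 and 14, and number 4 against 3 called 1 in Clone 28. In DMSO alone, number 3 against 2 called 50 and number 4 against 3 called 1. In dTAG-13 alone, number 3 against 2 called 9 and number 4 against 2 called 20. Without the filter on low counts, number 4 against 3 called 6 and dTAG-13 at number 3 called 3. Fewer libraries enter the fits of single clones and treatments. The shares of all genes called in these fits are not given here, so the counts cannot be read as particular to the histone genes.

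Of the 18 tested members without overlap or shared words, 18 differed between numbers, 11 in their dTAG-13 effect between numbers and 8 between Clones 39 and 28. Over all genes 37.2% and 1.73% passed the first 2 tests, and 14.3% were lower and 12.4% higher in Clone 39 than in Clone 28. DESeq2 called 10 members for the dTAG-13 effect between numbers and 0, 0, 0 and 2 within numbers 1 to 4, where it gave adjusted values for 10, 12, 28 and 8 members. Without independent filtering it called 9 and, within every number, 0. The cause was not tested. At a threshold of 0.05 the counts within numbers 1, 2 and 3 were 5, 7 and 2. The dTAG-13 effect between numbers called 18 members without Clone 28 and 14 without Clone 35. Shares of all genes are not given for the fits without a clone. Without Clone 28, dTAG-13 called 1, 2 and 6 members at numbers 1, 3 and 4, without Clone 35 it called 2, 2 and 1 at numbers 2, 3 and 4, and without Clone 39 it called 1 and 4 at numbers 1 and 2. Per kilobase of the whole gene H2BC5, H3C12 and H4C14 were at 17.45, 33.29 and 38.26 CPM.

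Leaving out each library gave 51 to 54 members for the test between numbers, 52 to 54 for number 4 against 1, 16 to 23 for 2 against 1, 43 to 50 for 3 against 1, 23 to 35 for 3 against 2, 39 to 46 for 4 against 2 and 0 to 1 for 4 against 3 (1 without the number 2 dTAG-13 library of Clone 39). It gave 26 to 35 for the dTAG-13 effect between numbers, and 1 to 9, 3 to 14, 0 to 7 and 1 to 12 within numbers 1 to 4. For Clones 35 against 28, 39 against 28 and 39 against 35 it gave 2 to 3, 8 to 35 and 2 to 12. dTAG-13 over all clones stayed at 0. Shares of all genes are not given for these repeats, so a count that moved cannot be read as particular to the histone genes. The 10 members with few reads entered no test.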
